A study of Homo sapiens with 6 samples.

Results

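Respiratory complex I was examined through the 53 genes whose symbols name its NDUF subunits, its NDUFAF assembly factors or its mitochondrially encoded MT-ND subunits, out of 60664 genes in the deposited table. Of these, 38 are nuclear genes named as subunits, 8 are assembly factors and 7 are encoded by the mitochondrial genome. SW480, a human cell line derived from a colorectal adenocarcinoma and labelled WT in genotype, was treated with Amuc_0904 for 3 RNA libraries and with buffer for the other 3. Dose and exposure time are not given, and the labels do not say whether the replicates were separate cultures, so p-values measure the spread between the libraries as labelled. Values are TPM, a share of each library scaled by transcript length, which keeps no record of read number. The depth behind each value is therefore unknown. Because RNA was taken from whole cultures, fewer cells carrying a transcript and less of it per cell cannot be told apart.

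Complex I takes electrons from NADH, passes them through a flavin and a chain of iron-sulfur clusters to ubiquinone, and pumps protons across the inner mitochondrial membrane. Its conserved core is made partly from nuclear genes, whose products form the matrix arm, and partly from the MT-ND genes, whose products form the membrane arm. Accessory subunits surround the core, and assembly factors help to build the enzyme without staying in it. Both genomes must therefore supply the complex. The symbol rule also takes in NDUFA4, a protein now placed in cytochrome c oxidase, and NDUFAB1, which is also the mitochondrial acyl carrier protein.

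All 53 genes reached 1 TPM in 3 or more libraries and were tested, so none was lost to the filter on low values. In the test over 14421 genes (limma on log2(TPM + 1), Benjamini-Hochberg adjusted p under 0.05), NDUFAF8 fell, no member rose, and 52 did not pass. Among all genes tested, 1.37% passed in either direction, 0.999% lower and 0.368% higher with Amuc_0904, so 1 of 53 is near the share of all genes. At an unadjusted p under 0.05, 5 members were higher and 1 was lower, beside 4.49% and 16.3% of all genes. The median log2 fold change (Amuc_0904 minus buffer) was 0.01 over the members, with 29 above 0. Over all genes tested it was -0.06, with 37.5% above 0.

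**Figure D1:**
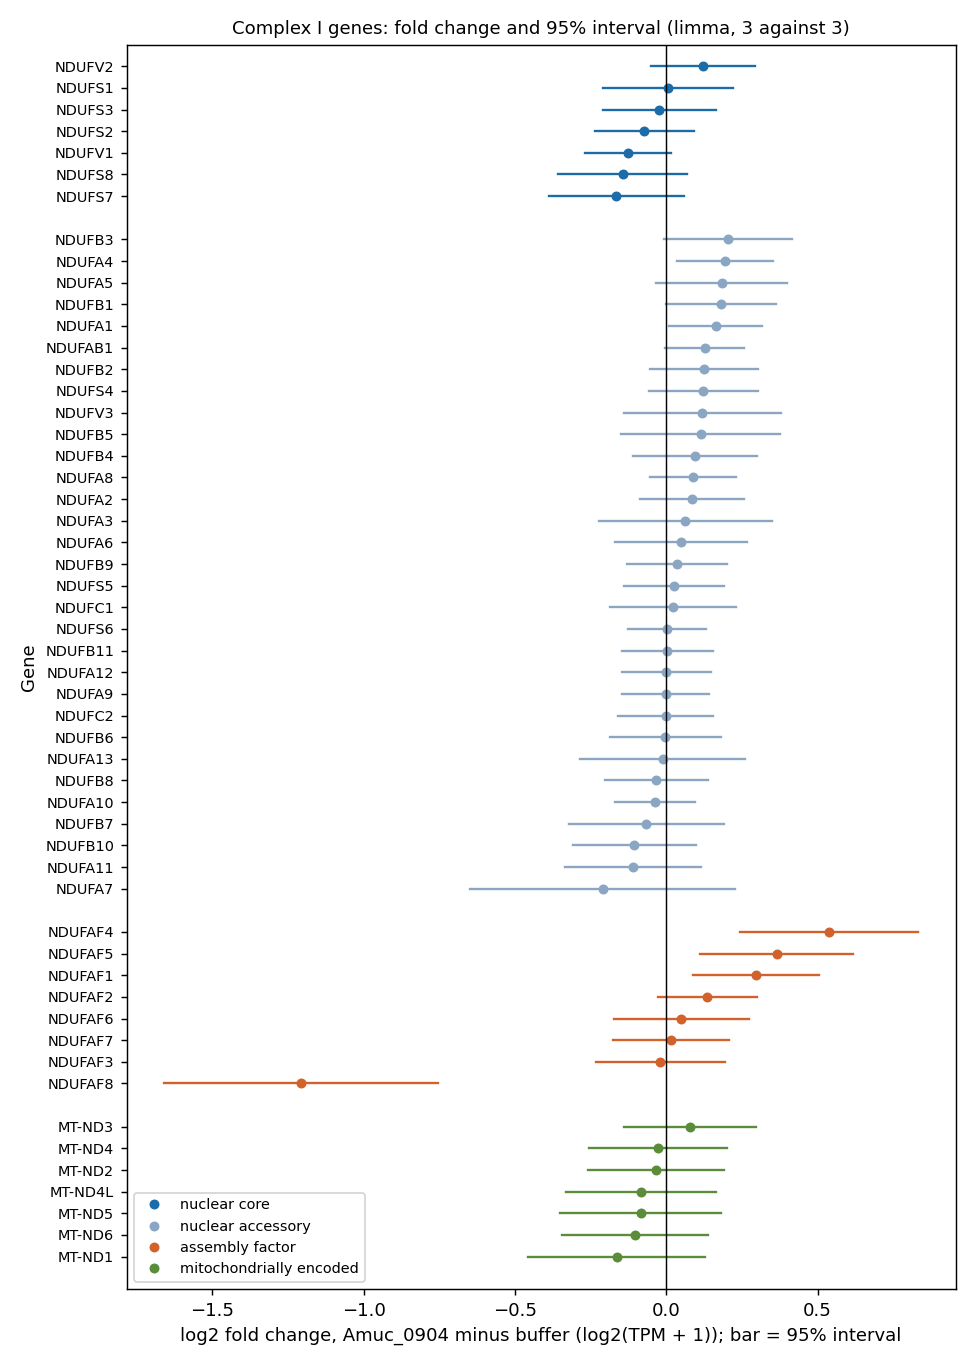
Log2 fold change, Amuc_0904 minus buffer on the log2(TPM + 1) scale, of the 53 genes with 95% intervals of the fit, grouped by role. NDUFAF8 lies alone at -1.21, while the 38 nuclear subunits lie between -0.21 and 0.20.

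The assembly factors held the widest range of changes, from -1.21 for NDUFAF8 to 0.54 for NDUFAF4 on the log2 scale. NDUFAF8 (ENSG00000224877) encodes a small protein that binds and stabilises NDUFAF5. It lies on the plus strand at positions 81239239 to 81241281 of chromosome 17 in GENCODE 29 (GRCh38), where no other annotated gene overlaps it. NDUFAF8 was at 124, 107 and 69.6 TPM in the Amuc_0904 libraries, against 247, 245 and 192 TPM in the buffer libraries. Every Amuc_0904 library lay below every buffer library, as in 20.1% of all genes tested, and buffer replicate 3 was the lowest of its group, as Amuc_0904 replicate 3 was of its own. The means were 100.5 ± 28.1 TPM with Amuc_0904 and 228 ± 31.5 TPM with buffer (SD, n = 3 each), 2.27-fold lower with Amuc_0904. The log2 fold change was -1.21 (SE 0.20, 95% interval -1.66 to -0.75, limma adjusted p = 0.035). The call was lost when the relation of expression to transcript GC content was removed from each library (-1.01, limma adjusted p = 0.072). Here and below, that removal also set library means equal, unless they are said to be kept. With library means kept, a setting chosen after seeing the data, NDUFAF8 still passed the limma test. The call was lost as well when libraries were centred on their medians (limma adjusted p = 0.070). It was also lost without buffer replicate 1, 2 or 3 (limma adjusted p = 0.085, 0.14 and 0.054) or Amuc_0904 replicate 2 (limma adjusted p = 0.074). With a single library left out, the log2 fold change of NDUFAF8 lay between -1.38 and -0.96.

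NDUFAF4, NDUFAF5 and NDUFAF1 lay on the other side of 0, and none passed the test. NDUFAF4 acts with NDUFAF3 in early assembly of the part that binds ubiquinone. It was at 26.1, 21.7 and 19.4 TPM with Amuc_0904, against 15.8, 13.0 and 16.5 TPM with buffer. The Amuc_0904 libraries lay wholly above the buffer libraries, as in 7.00% of all genes tested, and the ratio of means was 1.49 (log2 fold change 0.54, SE 0.13, 95% interval 0.24 to 0.83, limma adjusted p = 0.077). With genes restricted to those that reached 5 TPM in 3 or more libraries, the limma adjusted p of NDUFAF4 was 0.048, and over the other settings tried it lay between 0.077 and 0.24, among them 0.17 with GC content removed and 0.22 with no filter. NDUFAF5, the enzyme that hydroxylates an arginine of NDUFS7 and is itself stabilised by NDUFAF8, was at 25.5, 20.2 and 22.8 TPM with Amuc_0904, against 17.1, 15.8 and 19.5 TPM with buffer. Its groups did not overlap either, although the lowest Amuc_0904 library and the highest buffer library were close, and the log2 fold change was 0.36 (95% interval 0.11 to 0.62, limma adjusted p = 0.12). NDUFAF1, which works in a membrane-bound assembly module, was at 13.3, 11.6 and 13.1 TPM with Amuc_0904, against 10.4, 9.84 and 10.1 TPM with buffer. These also did not overlap (log2 fold change 0.30, SE 0.09, limma adjusted p = 0.12).

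NDUFAF8 and the NDUFAF5 it stabilises thus had fold changes of opposite sign, and NDUFS7, the subunit that NDUFAF5 modifies, had overlapping groups. NDUFAF3, the partner of NDUFAF4, was at 93.4, 97.6 and 78.9 TPM with Amuc_0904, against 83.2, 95.9 and 93.9 TPM with buffer. Its groups overlapped and its log2 fold change was -0.02 (limma adjusted p = 0.93), a sign that turned to 0.18 with GC content removed. NDUFAF3 overlaps DALRD3 and MIR191 on the other strand, and without a known strand protocol their reads cannot be told apart. The remaining 3, named after their values were seen, had overlapping groups: NDUFAF2, NDUFAF6 and the methyltransferase NDUFAF7, with log2 fold changes of 0.14, 0.05 and 0.01. The summed level of the 8 assembly factors was 418, 386 and 339 TPM with Amuc_0904, against 504, 498 and 456 TPM with buffer. Without NDUFAF8, a split made after its values were seen, the sum was 294, 278 and 270 TPM with Amuc_0904, against 257, 252 and 264 TPM with buffer. NDUFAF8 was the most abundant of the 8 in every buffer library, and the order of the sums turned with its removal.

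**Figure D2:**
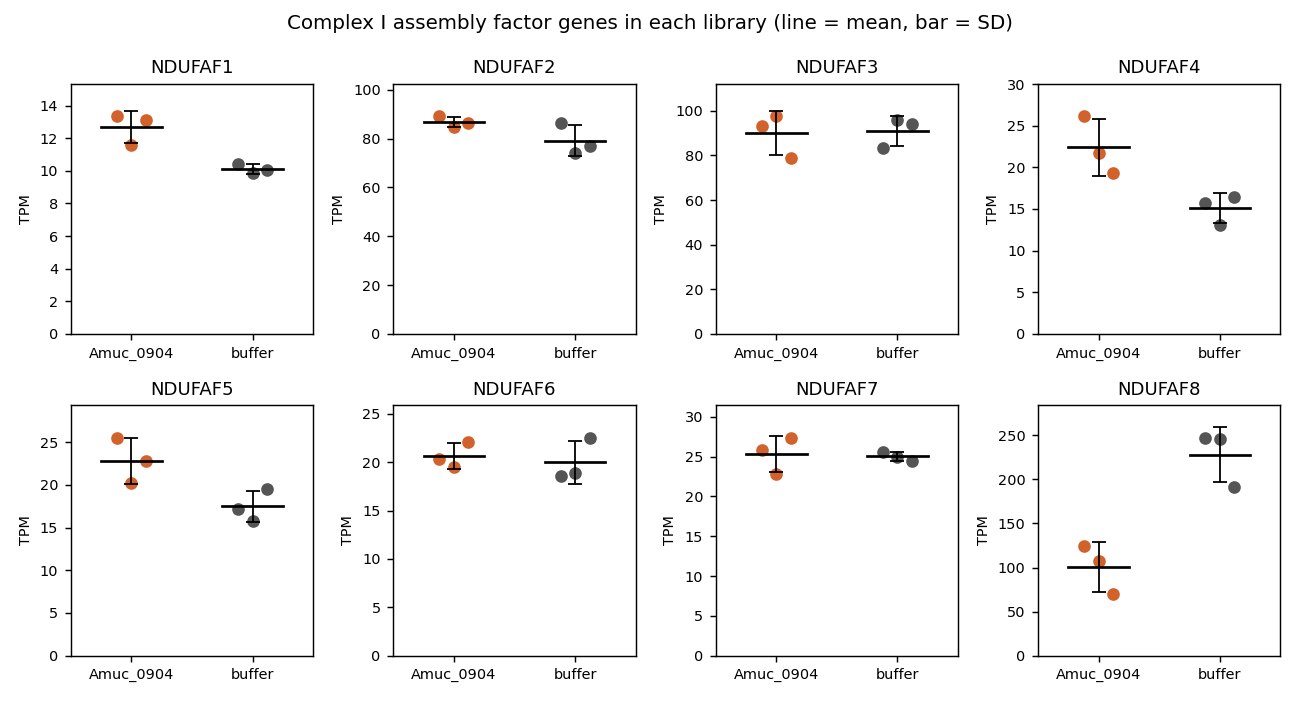
TPM of the 8 assembly factor genes in each library, with Amuc_0904 left and buffer right in each panel, the line at the group mean and the bar at 1 SD. The points separate for NDUFAF1, NDUFAF4 and NDUFAF5, higher with Amuc_0904, and for NDUFAF8, lower with Amuc_0904, and overlap for the other 4. Over all genes tested, 7.00% lay wholly above and 20.1% wholly below.

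The promoters of these 4 assembly factors are shown because they are the members furthest from 0 and lie on opposite sides of it. Each stretch runs from 120 bases before to 30 bases after the start site in RefSeq (GRCh38.p14), 5′ to 3′ on the gene's strand, with capitals marking matches on either strand to GCATGC (the centre of NRF1 sites), CCGGAAG (ETS factors), ATGGCGG (YY1) or CCAAT. These letters were chosen after a first search with longer forms, and none of them contains another. The positions are chr17:81239191-81239340 (plus), chr6:96897862-96898011 (minus), chr20:13784908-13785057 (plus) and chr15:41402467-41402616 (minus).
NDUFAF8: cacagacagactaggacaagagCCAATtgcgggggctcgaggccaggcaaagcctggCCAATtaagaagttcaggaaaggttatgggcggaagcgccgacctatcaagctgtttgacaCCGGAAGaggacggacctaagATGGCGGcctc
NDUFAF4: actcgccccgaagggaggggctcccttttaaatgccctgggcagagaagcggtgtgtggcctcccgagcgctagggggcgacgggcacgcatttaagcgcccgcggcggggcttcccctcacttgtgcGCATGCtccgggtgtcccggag
NDUFAF5: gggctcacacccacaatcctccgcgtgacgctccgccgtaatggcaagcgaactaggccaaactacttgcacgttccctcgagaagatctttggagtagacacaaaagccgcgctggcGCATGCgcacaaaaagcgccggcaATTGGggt
NDUFAF1: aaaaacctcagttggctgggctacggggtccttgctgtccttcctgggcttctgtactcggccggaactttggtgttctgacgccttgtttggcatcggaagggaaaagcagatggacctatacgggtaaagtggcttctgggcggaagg
The stretch of NDUFAF8, the most upstream of its 3 RefSeq starts, held 2 CCAAT matches, CCGGAAG and ATGGCGG. That of NDUFAF5 held GCATGC and CCAAT on the other strand, that of NDUFAF4 held GCATGC, and that of NDUFAF1 held none of these. In windows of 250 bases before to 50 after the start, which RefSeq gave for 39 of the 53 genes, GCATGC was in 10 members (25.6%), beside 11.2% of 10248 tested genes and 8.80% of 27305 genes with a window. ATGGCGG, whose letters include a start codon, was in 17 members (43.6%), beside 12.8% of tested genes and 6.66% of all with a window. CCGGAAG was in 7 members (17.9%, against 22.9% of tested genes and 12.2% of all), CCAAT in 12 (30.8%, against 42.7% and 39.7%) and GGGCGG, left in lower case above, in 25 (64.1%, against 78.1% and 48.3%). Such matches describe letters only.

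Of the 46 nuclear members, 23 had the start of a protein-coding gene on the opposite strand within 1000 bases. That start could lie on either side of the member's own, so some of these pairs overlap. The share over all genes was not computed. Of the 23 neighbours 20 were tested and none passed (limma, adjusted p under 0.05). At an unadjusted p under 0.05, 6 were higher and 3 lower, beside 4.49% and 16.3% of all genes. TEPSIN, a gene of vesicle coats, starts 148 bases from NDUFAF8. It was at 12.1, 16.2 and 10.2 TPM with Amuc_0904, against 16.8, 15.6 and 18.1 TPM with buffer, with overlapping groups (log2 fold change -0.39, SE 0.15, limma adjusted p = 0.20). ESF1, a ribosome biogenesis gene, starts 64 bases from NDUFAF5. It was at 22.4, 23.2 and 24.4 TPM with Amuc_0904, against 20.7, 20.5 and 19.4 TPM with buffer (log2 fold change 0.20, limma adjusted p = 0.18), and the groups did not overlap. Both neighbours were named after their values were seen.

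None of the 7 nuclear core subunits passed the limma test, 0 had an unadjusted p under 0.05, and in all 7 the groups overlapped. Over all genes tested, 4.49% were higher and 16.3% lower at that p, and 7.00% lay wholly above and 20.1% wholly below. NDUFV1, which carries the NADH site and the flavin, was at 209, 227 and 204 TPM with Amuc_0904, against 223, 239 and 237 TPM with buffer (log2 fold change -0.13, SE 0.06, limma adjusted p = 0.29). Its partner NDUFV2, an iron-sulfur protein, was at 282, 256 and 284 TPM with Amuc_0904, against 275, 235 and 246 TPM with buffer (log2 fold change 0.12, limma adjusted p = 0.40). These were the most abundant core subunits, and their fold changes had opposite signs. NDUFS7 and NDUFS8 carry the clusters next to ubiquinone. NDUFS7 was at 128, 139 and 108 TPM with Amuc_0904, against 129, 143 and 147 TPM with buffer (log2 fold change -0.17, limma adjusted p = 0.37). NDUFS8 was at 206, 210 and 172 TPM with Amuc_0904, against 196, 229 and 223 TPM with buffer (log2 fold change -0.14, limma adjusted p = 0.42). In both genes Amuc_0904 replicate 3 was the lowest of the 6 libraries. The core median was -0.07 with 5 of 7 below 0. It was 0.03 with GC content removed and library means set equal, and 0.01 with libraries centred on their medians. NDUFV1, NDUFS7 and NDUFS8 all turned above 0 in the former setting. With GC content removed and library means kept, the core median was -0.04 with 2 of 7 above 0.

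None of the 31 accessory subunits passed the limma test either. At an unadjusted p under 0.05 there were 2 higher and 0 lower, beside 4.49% and 16.3% of all genes. The sign was positive in 20 of them, and the median log2 fold change was 0.04, or 0.03 without NDUFA4. With GC content removed and library means set equal, 28 of 31 were above 0, the same number as with libraries centred on their medians. With GC content removed and library means kept, 22 were. The median lay between 0.0063 without Amuc_0904 replicate 1 (16 above 0) and 0.10 without Amuc_0904 replicate 3 (25 above 0), and it was 0.0083, 0.02 and 0.08 without buffer replicate 2, Amuc_0904 replicate 2 and buffer replicate 3, so single libraries set its size. All Amuc_0904 libraries lay above all buffer libraries in 3, which were NDUFA4, NDUFA5 and NDUFAB1, and in none did all lie below. The shares over all genes tested were 7.00% above and 20.1% below. NDUFA4 was at 137, 128 and 127 TPM with Amuc_0904, against 113, 107 and 123 TPM with buffer (log2 fold change 0.19, 95% interval 0.04 to 0.35, limma adjusted p = 0.17). NDUFA5, of the matrix arm, was at 44.2, 44.7 and 43.0 TPM with Amuc_0904, against 42.5, 33.3 and 40.6 TPM with buffer (log2 fold change 0.18, limma adjusted p = 0.31). The gap between the groups was small in NDUFA5, and buffer replicate 2 stood lowest. NDUFAB1 was at 207, 202 and 194 TPM with Amuc_0904, against 177, 184 and 191 TPM with buffer (log2 fold change 0.13, limma adjusted p = 0.25).

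Among the membrane arm subunits, NDUFB3 had the largest positive change of any nuclear subunit. It was at 333, 267 and 279 TPM with Amuc_0904, against 275, 239 and 247 TPM with buffer (log2 fold change 0.20, SE 0.09, limma adjusted p = 0.26). NDUFB1 was at 576, 567 and 535 TPM with Amuc_0904, against 552, 483 and 450 TPM with buffer (log2 fold change 0.18, limma adjusted p = 0.24). In both the groups overlapped only through buffer replicate 1. NDUFB3 overlaps FAM126B on the other strand, and without a known strand protocol their reads cannot be told apart. FAM126B, named after its values were seen, had a log2 fold change of 0.35 (limma adjusted p = 0.12). Of the nuclear members named here, NDUFV1, NDUFV2, NDUFS7, NDUFS8, NDUFAF2, NDUFAF6, NDUFAF7 and NDUFC2 also overlap other annotated genes, some on the same strand, with the same limit. NDUFS6, a zinc-binding matrix arm subunit, was the most abundant nuclear member, at 687, 680 and 635 TPM with Amuc_0904, against 683, 644 and 670 TPM with buffer (log2 fold change 0.00, limma adjusted p = 0.98). NDUFA7 had the largest negative change of the nuclear subunits, at 90.7, 119 and 102 TPM with Amuc_0904, against 85.4, 137 and 146 TPM with buffer (log2 fold change -0.21, SE 0.19, limma adjusted p = 0.58). Its lowest value was in a buffer library, and it overlaps the ribosomal protein gene RPS28 and a readthrough transcript, whose reads cannot be told apart from its own. Over all 38 nuclear subunits the ratio of means lay between 0.846 and 1.16, and the 95% intervals of the fit covered folds from 0.638 to 1.33 on the log2(TPM + 1) scale. A 2-fold change in either direction thus lay outside the interval of each.

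The 7 mitochondrially encoded subunits were the most abundant members, with means over the 6 libraries of 1453 to 15474 TPM, against 22.8 to 666 TPM for the nuclear subunits and 11.4 to 164 TPM for the assembly factors. None passed the limma test, 0 had an unadjusted p under 0.05 (beside 4.49% higher and 16.3% lower of all genes), and all groups overlapped. MT-ND1, at the junction of the 2 arms, was at 2092, 2195 and 2951 TPM with Amuc_0904, against 2695, 2890.1 and 2445 TPM with buffer (log2 fold change -0.16, SE 0.13, limma adjusted p = 0.51). MT-ND5, a proton-pumping subunit, was at 1570.2, 1597 and 2019 TPM with Amuc_0904, against 1909, 1982 and 1597 TPM with buffer (log2 fold change -0.09). MT-ND6, the 1 member on the opposite strand of the mitochondrial genome, was at 1257, 1321 and 1636 TPM with Amuc_0904, against 1569, 1571 and 1365 TPM with buffer (log2 fold change -0.10). In each of these, Amuc_0904 replicates 1 and 2 lay below all buffer libraries and Amuc_0904 replicate 3 above them, although in MT-ND5 Amuc_0904 replicate 2 and buffer replicate 3 were nearly level. MT-ND3 was at 5559, 5083 and 6479 TPM with Amuc_0904, against 5762, 5290.1 and 5110 TPM with buffer (log2 fold change 0.08). MT-ND4L, which shares a transcript with MT-ND4, was at 13317, 14744 and 17053 TPM with Amuc_0904, against 15998, 17408 and 14323 TPM with buffer (log2 fold change -0.08). Its entry of 297 bases overlaps that of MT-ND4, named after its values were seen, whose mean over the 6 libraries was 5546 TPM. The part of short length and shared reads in the level of MT-ND4L was not tested.

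Amuc_0904 replicate 3 was the highest Amuc_0904 library for all 7 of these genes and the highest of all 6 libraries for 6 of them, while buffer replicate 3 was the lowest buffer library for all 7. The median log2 fold change of the class was -0.08 with 1 of 7 above 0. Leaving out Amuc_0904 replicate 3 gave -0.18, leaving out buffer replicate 3 gave -0.16, and leaving out Amuc_0904 replicate 1 gave -0.00022, so single libraries set its size. It was also nearer 0 without buffer replicate 1, buffer replicate 2 or Amuc_0904 replicate 2 (-0.05, -0.02 and -0.03). The other 6 mitochondrially encoded mRNAs had a median of -0.05, and none passed.

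The summed TPM of the mitochondrially encoded subunits divided by that of the nuclear subunits was 3.43, 3.61 and 4.84 with Amuc_0904, against 4.30, 4.52 and 3.64 with buffer. The means, 3.96 ± 0.768 with Amuc_0904 and 4.16 ± 0.457 with buffer (SD, n = 3 each), differed by less than the spread between libraries. The nuclear sum alone was 9284, 9213 and 8329 TPM with Amuc_0904, against 8562, 8575 and 9125 TPM with buffer. In it, replicate 3 of each group went the opposite way to its mitochondrial values: lowest with Amuc_0904 and highest with buffer. Both sums are shares of the same library total, so they are not independent.

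**Figure D3:**
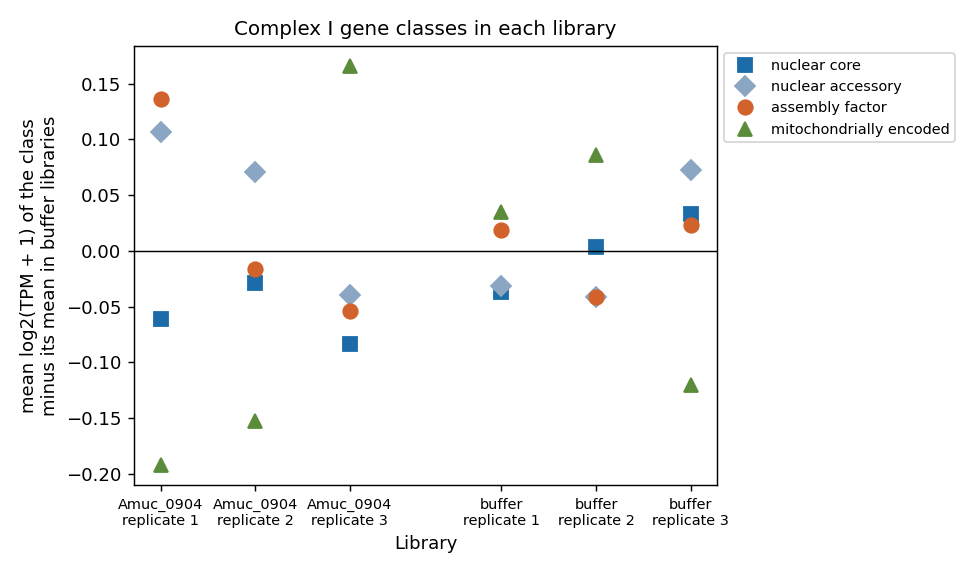
Mean log2(TPM + 1) of each class in each library, less its mean over the buffer libraries, with Amuc_0904 left and buffer right. For the mitochondrially encoded subunits the Amuc_0904 libraries sit at -0.19, -0.15 and 0.17 and the buffer libraries at 0.03, 0.09 and -0.12, on both sides of 0 in each group.

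Among the 38 nuclear subunits the fold change followed the GC content of the longest annotated transcript. Pearson's r across these genes was -0.69, and it was -0.58 over all 46 nuclear members and -0.35 over 14277 tested genes with a transcript. Genes of a library share its composition and are not independent replicates, so these values are a description. The 23 nuclear members of lower GC content (35.0% to 47.6%) had 18 fold changes above 0 and a median of 0.11. The 23 of higher GC content (48.2% to 65.0%) had 10 above 0 and a median of -0.02. With GC content removed and library means set equal, 19 and 21 were above 0 and the medians were 0.08 and 0.10. Across all genes, the slope of log2 expression per 10 points of GC content was 0.03, 0.07 and -0.04 in the Amuc_0904 libraries, against 0.07, 0.16 and 0.12 in the buffer libraries, so treatment and the libraries' GC relation cannot be told apart.

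**Figure D4:**
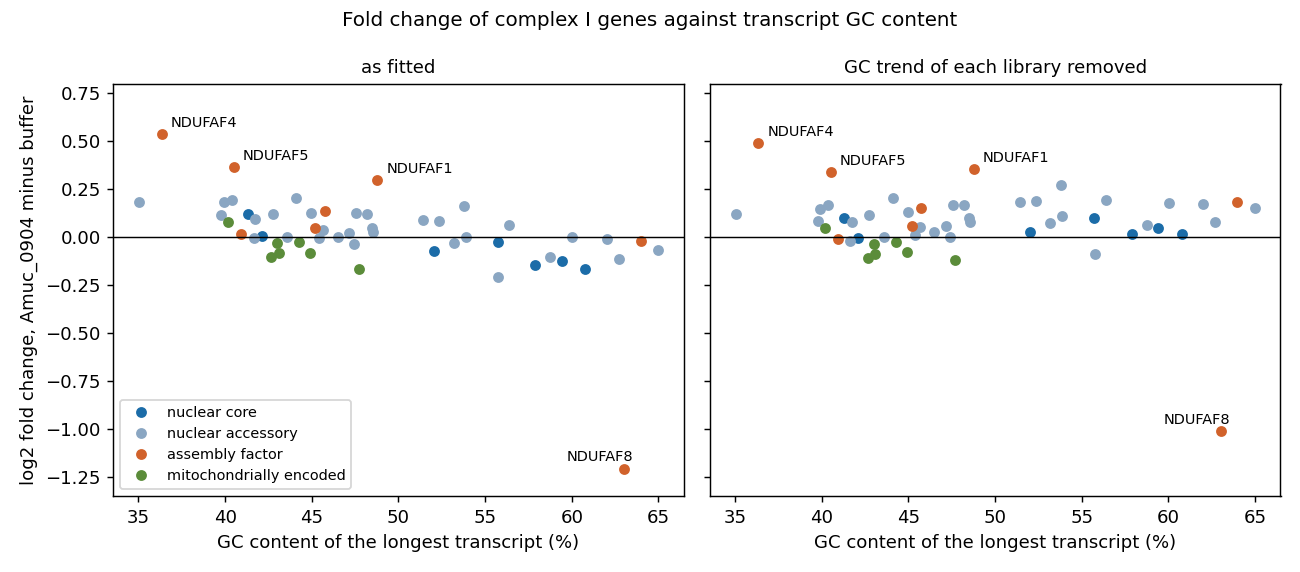
Log2 fold change, Amuc_0904 minus buffer, against transcript GC content in percent for the members, as fitted (left) and after the GC relation of each library was removed and library means were set equal (right). The downward drift of the nuclear subunits (r of -0.69) is absent in the right panel (r of 0.07), where NDUFAF8 lies at -1.01 (limma adjusted p = 0.072). The removal takes out this same relation over all genes, so so small an r is largely set by the method. With GC content removed and library means kept, which is not shown, NDUFAF8 still passed the limma test.

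Genes that serve the complex from outside the symbol list gave no call in either direction (limma, adjusted p under 0.05). The 14 other assembly factors had a median log2 fold change of 0.06 and adjusted p between 0.15 and 0.90. At an unadjusted p under 0.05, 1 was higher and 1 lower, beside 4.49% and 16.3% of all genes. TMEM126B, which works with NDUFAF1, averaged 86.1 ± 3.21 TPM with Amuc_0904 and 75.0 ± 4.62 TPM with buffer (SD, n = 3 each; limma adjusted p = 0.15). ECSIT of the same module averaged 21.2 ± 5.36 TPM with Amuc_0904 and 24.9 ± 0.592 TPM with buffer, with overlapping groups. Of 6 genes of mitochondrial transcription and RNA stability, with a median of 0.11, 5 were above 0. At an unadjusted p under 0.05, 2 of them were higher and 0 lower, beside the same shares of all genes. The transcription factor TFB2M averaged 19.6 ± 1.51 TPM with Amuc_0904 and 16.6 ± 0.158 TPM with buffer (limma adjusted p = 0.17). POLRMT lay below 0 (log2 fold change -0.21), at 34.7 ± 5.62 TPM with Amuc_0904 and 39.9 ± 2.12 TPM with buffer, with overlapping groups. Of 8 regulators of nuclear respiratory genes 7 were tested, with a median of 0.02, and PPARGC1A stayed below 1 TPM in every library. TMEM126B, ECSIT, TFB2M, POLRMT and PPARGC1A were chosen after their values were seen.

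Values of the members can hold reads of near-identical copies. The table lists 217 nuclear copies of MT-ND genes, of which 36 were above 0 and the highest reached 16.5 TPM, and 63 NDUF pseudogenes, of which 9 were above 0 and the highest reached 2.71 TPM. The readthrough transcript NDUFC2-KCTD14 reached 13.5 TPM, beside 399 ± 15.9 TPM with Amuc_0904 and 401 ± 30.7 TPM with buffer for NDUFC2 (SD, n = 3 each).

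The libraries carried epithelial markers. The summed level of 7 such markers was 7092 to 7380 TPM with Amuc_0904, against 7907 to 8148 TPM with buffer. Most of it came from KRT8, KRT18 and KRT19, with means of 3262, 2763 and 1379 TPM over the 6 libraries. VIL1 was at 0.69 to 0.83 TPM with Amuc_0904, against 0.74 to 1.09 TPM with buffer. CDX2 averaged 18.7 ± 0.528 TPM with Amuc_0904 and 28.0 ± 5.22 TPM with buffer (SD, n = 3 each; limma adjusted p = 0.077). CDH1 alone of the 6 tested fell, at 3.80 ± 0.246 TPM with Amuc_0904 and 7.01 ± 1.20 TPM with buffer (SD, n = 3 each; limma adjusted p = 0.044, or 0.054 with GC content removed). All 6 had a log2 fold change below 0, 5 lay wholly below buffer and 4 had an unadjusted p under 0.05. Over all genes tested, 37.5% were above 0, 20.1% lay wholly below and 16.3% were lower at an unadjusted p under 0.05. With GC content removed and library means set equal, 2 of the 6 were above 0. Leukocyte markers summed to 1.69 to 3.22 TPM with Amuc_0904, against 2.18 to 2.76 TPM with buffer, with PTPRC listed at 0. Fibroblast and endothelial markers summed to 1.46 to 2.11 TPM with Amuc_0904, against 1.93 to 3.56 TPM with buffer, with DCN listed at 0. The part of the epithelial markers' lower level in the results above was not tested. Mitochondrial genes took 9.86% to 12.8% of the listed TPM, and 14244 to 14586 genes reached 1 TPM per library.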

How the data were processed

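RNA from 3 Amuc_0904 and 3 buffer libraries of SW480 cells was sequenced on an Illumina NovaSeq instrument. The authors deposited 1 gene table in TPM, quantified with RSEM per the labels' series design. HISAT2, StringTie, edgeR and the mouse build GRCm38.p6 also stand in the submitters' processing notes, whereas the identifiers are human Ensembl genes, so the annotation used is uncertain. Depth and strand protocol are not given in the sources used here, and precision was taken from the spread between libraries.

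Genes that reached 1 TPM in 3 or more libraries were tested, two-sided, on log2(TPM + 1) by limma (version 3.58.1, R version 4.3.3) with trended empirical Bayes variances, with Benjamini-Hochberg adjustment over all 14421. The script was tested on simulated data. For each gene the longest GENCODE 29 transcript gave GC content and length (99.0% of tested genes), whose trends were removed with loess (span 0.3). The removal also set library means equal, except in the alternative with library means kept. RefSeq promoters were searched by exact letters on both strands.

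The members, classes and lists were chosen with earlier results of these data known. Named members were those past the threshold, the 4 largest changes and 2 highest levels of each class, NDUFA4 and NDUFAB1; others were chosen after their values were seen. Alternatives were another pseudocount, filters, median centring, quantile normalization, GC and length removal, a replicate block and omission of libraries.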

Additional observations from a re-analysis of the deposited data

How the results depend on the processing

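The number of members that fell was 1, NDUFAF8. It stayed 1 with a pseudocount of 0.1, at least 5 TPM, mitochondrial and ribosomal protein genes left out, and GC content removed with library means kept, an alternative chosen after seeing the data (limma adjusted p = 0.045). It was 0 with no filter on low TPM (log2 fold change of NDUFAF8 -1.21, limma adjusted p = 0.16), median centring (-1.13, 0.070), quantile normalization (-1.18, 0.053), GC removal (-1.01, 0.072), length removal (-1.19, 0.059), omission of both extreme libraries of the first principal component (-0.91, 0.10) and a threshold of 0.01. Leaving out each library in turn gave 0 to 1. Filtering at 5 TPM gave 1 member that rose, NDUFAF4, against 0 as reported. All genes past the threshold numbered 197, against 9 with no filter, 432 at 5 TPM, 85 centred, 102 quantile normalized, 113 with GC and 68 with length removed.

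Replicate numbers are shared between groups, but same-numbered libraries did not deviate together (correlations -0.03, 0.08 and -0.09). With the replicate block NDUFAF8 still passed (limma adjusted p = 0.013), 1 member fell and 80 genes passed in all.

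The core median was 0.0078 centred, -0.017 quantile normalized, 0.028 with GC and -0.0061 with length removed, and -0.11 to -0.037 with a library left out. With GC removed and library means kept it was -0.042. The accessory median was 0.12 centred and 0.11 with GC removed, and the assembly factor median 0.17 under both. With GC removed and library means kept, these medians were 0.039 and 0.099. With a library left out they ranged from 0.0063 to 0.10 and from 0.054 (without buffer replicate 2) to 0.13. Fold changes whose sign turned were those of NDUFAF3 (0.0073 without mitochondrial and ribosomal protein genes, 0.061 centred, 0.030 quantile normalized, 0.18 with GC removed, 0.11 with library means kept, 0.046 with length removed, 0.11 without both extreme libraries), NDUFS7 (0.015), NDUFS8 (0.015) and NDUFV1 (0.047) with GC removed, MT-ND3 (-0.022 with GC removed and library means kept, -0.030 without both extreme libraries) and MT-ND4L (0.043 with length removed). With a library left out, NDUFAF3 ranged from -0.082 to 0.071, NDUFS6 from -0.020 to 0.038 and MT-ND3 from -0.017 to 0.16. The cause of these changes was not tested. Without mitochondrial genes, the MT-ND members have no value.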
